A study of Mus musculus with 9 samples.

Results

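Transcripts of 10 genes for calcium handling at the sarcoplasmic reticulum were followed in HL-1 cells, a line of mouse cardiac muscle cells of atrial origin, among 25175 gene symbols with FPKM values (fragments per kilobase of transcript, scaled to the mapped fragments of the library). The genes were taken by symbol and sorted by role: Ryr2, Trdn, Jph2 and Fkbp1b for release, Atp2a2, Pln and Sln for uptake, Casq2 and Hrc for buffering, and Slc8a1 for extrusion. All 10 had 1 row in every library and passed the filter of at least 1 FPKM in at least 3 libraries. The study had 3 groups of 3 libraries, each from cells kept for 24 h with 0.1% DMSO as vehicle, with 5 µM ivermectin or with 10 µM importazole. Ivermectin, an antiparasitic drug, is also used to block importin α/β, and importazole blocks importin-β. Both proteins belong to the machinery that brings cargo into the nucleus. The labels give DMSO for the vehicle group alone. All groups used the same single line, and the labels do not say whether replicates were separate cultures, so p-values measure the spread between these libraries, which may be technical.

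In a heart muscle cell each beat begins with calcium entry from outside, which opens the ryanodine receptor Ryr2 in the membrane of the sarcoplasmic reticulum and lets stored calcium out. Junctophilin-2 (Jph2) holds that membrane close to the cell surface, triadin (Trdn) ties the receptor to the calcium-binding protein calsequestrin-2 (Casq2) inside the store, and Fkbp1b binds and steadies the receptor. Calcium is pumped back by the ATPase SERCA2, the product of Atp2a2, which the small membrane proteins phospholamban (Pln) and sarcolipin (Sln) hold in check, and it leaves the cell through the sodium-calcium exchanger encoded by Slc8a1. The histidine-rich calcium-binding protein Hrc is a further binder of calcium in the store. Sarcolipin is known as an atrial gene in the mouse heart.

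Library depth is unknown, since the deposited values did not give back whole reads. FPKM summed to between 365259 and 416748 per library. Vehicle 2 and ivermectin 3 stood apart in having 0 FPKM of the transcript Yam1, which had 24051 FPKM or more elsewhere. Calls below are also given with both of them left out. Of 8 general cardiomyocyte markers, Ryr2 among them, all 8 were tested, and 3 were lower with ivermectin and 2 with importazole than with vehicle. Their summed level was 4368 to 5009 FPKM with vehicle, 3929 to 4212 FPKM with ivermectin and 4165 to 4526 FPKM with importazole, a shift whose part in the results below was not tested. Fewer cells of a type and less RNA per cell cannot be told apart in such bulk libraries. Markers of the ventricle summed to 2.54 to 4.88 FPKM over all libraries, those of macrophages and blood to 0.796 to 2.29 FPKM with Hbb-bs listed at 0, and neuronal markers to 0.625 to 0.989 FPKM. Of 7 fibroblast markers 5 stayed under 1 FPKM in every library. Ddr2, a collagen receptor gene, went from 23.7 ± 1.83 FPKM with vehicle (mean ± SD, n = 3) to 36.1 ± 0.912 with ivermectin and 33.6 ± 1.44 with importazole, which gave that list a sum of 23.7 to 26.9 FPKM with vehicle and 34.4 to 38.9 FPKM with either compound. Endothelial markers summed to 8.97 to 11.5 FPKM, a sum carried by Kdr at 7.15 to 8.54 FPKM. The smooth muscle list, at 1021 to 1244 FPKM, was carried by Acta2. Skeletal muscle markers, Casq1 among them, summed to 15.4 to 16.3 FPKM with vehicle, 13.9 to 17.1 with ivermectin and 11.4 to 11.7 with importazole. That sum was carried by Ckm, at 13.6 ± 0.485, 13.5 ± 1.89 and 9.99 ± 0.259 FPKM in that order, and 5 of the 7 markers stayed under 1 FPKM in every library.

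With vehicle the pump transcript stood far above the channel transcript. Atp2a2 was at 777 ± 36.5 FPKM, above 99.5% of the 11337 genes tested, followed by Casq2 at 154 ± 3.05 FPKM. Slc8a1 (68.7 ± 2.31 FPKM), Pln (64.3 ± 1.99 FPKM) and Jph2 (59.3 ± 2.93 FPKM) formed a middle tier, in that order and without overlap between neighbours. Hrc was at 18.4 ± 0.778 FPKM. Fkbp1b at 10.9 ± 1.14 FPKM and Ryr2 at 9.38 ± 0.989 FPKM overlapped, and Trdn at 6.9997 ± 0.421 FPKM lay just below them. Sln was last at 1.81 ± 0.415 FPKM, above 9.66% of tested genes, in a list of 4 atrial markers. That list summed to 3333 to 3786 FPKM with vehicle, 2832 to 3170 FPKM with ivermectin and 3185 to 3362 FPKM with importazole. Of its 4 genes, 1 was called lower with ivermectin and 1 higher with importazole than with vehicle, neither of them Sln. With ivermectin Pln stood above Slc8a1, at 67.5 ± 3.69 and 54.7 ± 1.66 FPKM without overlap. With importazole these neighbours overlapped, at 61.9 ± 0.438 FPKM for Pln and 64.5 ± 2.59 FPKM for Slc8a1.

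For the channel, the exchanger, calsequestrin and junctophilin, a single cardiac form made up nearly all of the family's signal. Ryr2 held 97.6% to 99.4% of summed ryanodine receptor FPKM per library, with Ryr1 and Ryr3 at most at 0.101 and 0.225 FPKM. Casq2 held 98.5% to 99.1% beside the skeletal muscle form Casq1, and Slc8a1 held 98.1% to 99.2% beside Slc8a2 and Slc8a3. Jph2 held 99.0% to 99.9% of the sum with Jph1 and Jph4. Fkbp1b and Trdn stood below a relative instead. Fkbp1b was at 1.75% to 2.68% of its sum with the near relative Fkbp1a, whose product is the widely expressed form of the same binding protein and which ranged from 375 to 475 FPKM. Trdn held 18.9% to 23.5% of its sum with Asph, whose locus encodes the related protein junctin among other products and which was at 24.6 to 29.8 FPKM.

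The genes lie on 9 chromosomes of the GRCm38 build. Ryr2 is on chromosome 13 (11553102 to 12106945, minus strand), Trdn on chromosome 10 (33080554 to 33476709, plus), Jph2 on chromosome 2 (163336242 to 163397993, minus) and Fkbp1b on chromosome 12 (4833174 to 4841591, minus). Atp2a2 is on chromosome 5 (122453513 to 122502225, minus), Pln on chromosome 10 (53337667 to 53345987, plus) and Sln on chromosome 9 (53850164 to 53854560, plus). Casq2 is on chromosome 3 (102086415 to 102146514, plus), Hrc on chromosome 7 (45335290 to 45338974, plus) and Slc8a1 on chromosome 17 (81373105 to 81738377, minus). Exons of Pln overlap exons of Cep85l on the opposite strand, and whether the counting used strand was not given in the sources used here. The level of Pln is therefore uncertain by the share of Cep85l, which was at 2.88 to 3.52 FPKM in the 9 libraries.

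The stretches just before the start of the 4 members that passed a comparison with vehicle are shown, since Hrc passed with both compounds and each of the others with 1 of them. RefSeq promoter windows on GRCm38.p6 were found for 7 of the 10 members, and each line holds the 250 bases upstream of the start, 5′ to 3′ on the gene's strand, with no annotated exon inside. The windows are chr7:45335019-45335268, plus strand (Hrc), chr3:102086165-102086414, plus strand (Casq2), chr2:163397994-163398243, minus strand (Jph2) and chr17:81738388-81738637, minus strand (Slc8a1). Capitals mark matches to an E-box (CANNTG), the binding motif of MEF2 or a GATA motif (AGATAA), each searched on both strands.
Hrc: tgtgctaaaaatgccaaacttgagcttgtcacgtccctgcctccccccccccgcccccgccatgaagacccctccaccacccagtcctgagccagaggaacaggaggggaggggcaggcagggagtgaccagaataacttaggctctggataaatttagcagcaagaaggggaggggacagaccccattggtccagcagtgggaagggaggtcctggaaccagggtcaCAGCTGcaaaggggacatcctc
Casq2: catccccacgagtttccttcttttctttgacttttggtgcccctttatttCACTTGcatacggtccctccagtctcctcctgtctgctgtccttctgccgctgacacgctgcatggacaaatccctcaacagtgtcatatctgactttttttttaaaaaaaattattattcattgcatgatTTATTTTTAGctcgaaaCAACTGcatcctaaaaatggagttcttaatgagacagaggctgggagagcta
Jph2: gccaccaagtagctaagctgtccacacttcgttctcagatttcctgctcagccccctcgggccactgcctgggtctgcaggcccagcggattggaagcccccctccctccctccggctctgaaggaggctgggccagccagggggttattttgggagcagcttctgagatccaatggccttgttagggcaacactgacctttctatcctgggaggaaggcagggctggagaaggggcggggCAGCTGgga
Slc8a1: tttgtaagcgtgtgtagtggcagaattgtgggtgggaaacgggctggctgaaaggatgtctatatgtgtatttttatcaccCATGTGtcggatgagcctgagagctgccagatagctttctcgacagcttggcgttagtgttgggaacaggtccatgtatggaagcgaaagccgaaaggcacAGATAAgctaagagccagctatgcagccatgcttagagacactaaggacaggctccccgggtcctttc

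Hrc and Jph2 both carried the E-box letters CAGCTG close to the start, 22 to 17 bases before it in Hrc and 9 to 4 bases before it in Jph2. A further Jph2 window, not shown because it overlaps a Jph2 exon, has the same letters 29 to 24 bases before its start. Such letters are common: an E-box stood in 66.2% of 32851 promoter windows of this length and in 6 of the 7 members with a window. Casq2 had E-boxes 200 to 195 and 52 to 47 bases before its start, and between them a match to the MEF2 motif, TTATTTTTAG, 69 to 60 bases before it. MEF2 is a family of muscle transcription factors, and its motif stood in 2.92% of windows and in 1 member. Slc8a1 had an E-box 169 to 164 bases and a GATA motif 68 to 63 bases before its start, the latter found in 9.99% of windows and also in Pln. No match to the SRF binding motif named CArG box (1.47% of windows) or to the M-CAT motif CATTCC (12.6%) was found in these windows. The hypoxia-response cores ACGTG (16.6% of windows) and GCGTG (28.2%) each matched in 4 of the 7 members. A match is a description of letters and shows no binding.

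**Figure D1:**
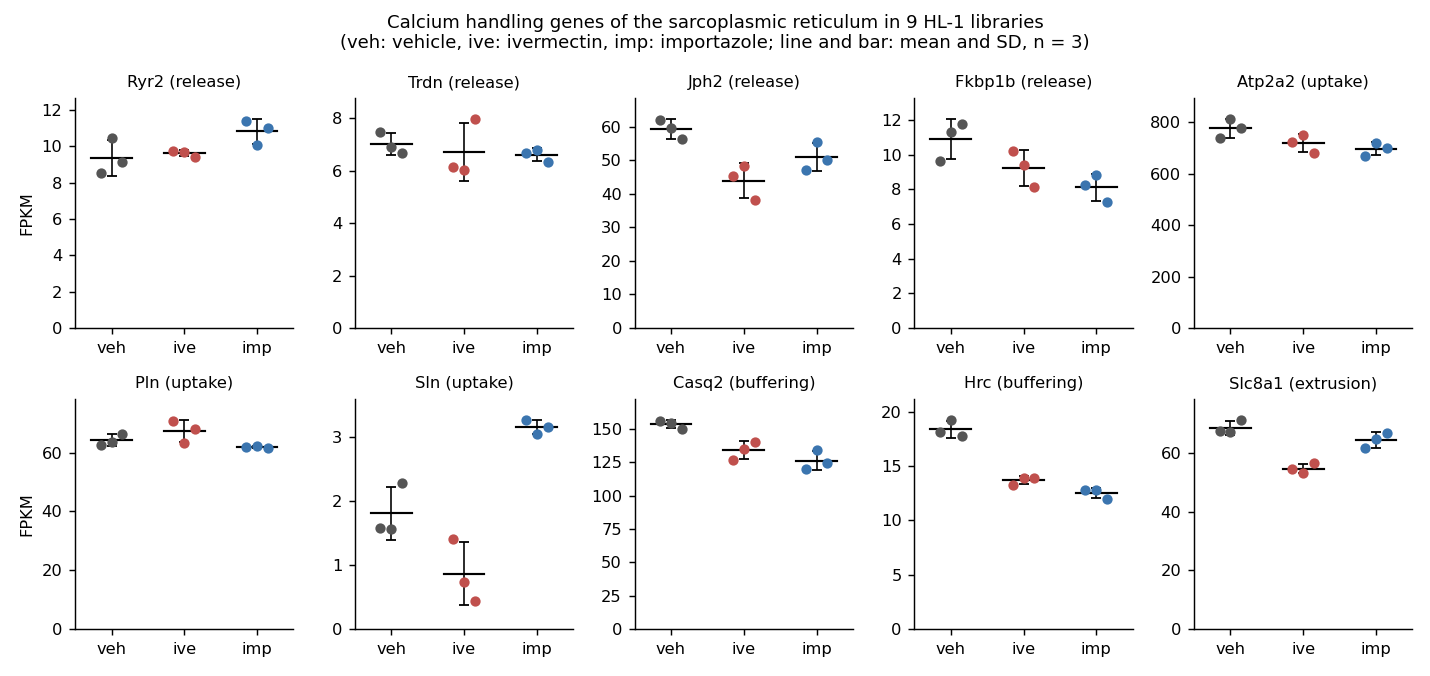
FPKM of each of the 10 genes (y axis, from 0) in the 9 libraries, as points by group on the x axis, with the mean as a line and the SD as a bar (n = 3). Hrc and Casq2 lie lower with both compounds than with vehicle, Slc8a1 and Jph2 are lowest with ivermectin, and Sln ranges from 0.440 FPKM with ivermectin to 3.27 FPKM with importazole.

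Ivermectin was compared with vehicle to ask which calcium-handling transcripts differed after 24 h of the importin α/β blocker. Hrc, Jph2 and Slc8a1 fell, to 0.745, 0.739 and 0.797 of their vehicle means. The other 7 members did not pass limma's test at an adjusted p under 0.05 over all genes. Of all 11337 genes 4.31% passed, 1.79% upward and 2.52% downward, beside which 3 of 10 members passed downward and 0 upward. At an unadjusted p under 0.05 there were 5 members, all lower, beside 20.7% of all genes in either direction. All 3 libraries lay below all 3 vehicle libraries for 5 members and above them for 0. Groups did not overlap for 24.6% of all genes, with 12.2% wholly lower and 12.4% wholly higher. The members' median log2 difference was -0.21, and it was 0.01 over all genes tested. The genes were chosen with earlier results of these data known, so these counts describe the genes and are not independent support.

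Among the release genes, Jph2 was at 62.0, 59.6 and 56.2 FPKM in vehicle 1, 2 and 3 and at 45.2, 48.2 and 38.0 FPKM in ivermectin 1, 2 and 3. All ivermectin libraries lay below all vehicle libraries, with ivermectin 3 the lowest. The log2 difference on the FPKM + 1 scale, which understates changes of low genes, was -0.43 (SE 0.093, limma adjusted p = 0.0251). That call ended without vehicle 1 (adjusted p = 0.0851), vehicle 2 (0.086), ivermectin 1 (0.0547) or ivermectin 3 (0.0607), with no filter (0.0903) and in a fit to the 6 libraries compared (0.0546). Without vehicle 2 and ivermectin 3 together the difference was -0.33 (adjusted p = 0.143). The channel gene itself differed little. Ryr2 was at 8.55, 10.5 and 9.11 FPKM with vehicle and 9.76, 9.68 and 9.43 FPKM with ivermectin, groups that overlapped. Its log2 difference was 0.04, with a 95% confidence interval of -0.15 to 0.23, and turned to -0.02 without vehicle 1. Trdn was at 7.47, 6.88 and 6.65 FPKM with vehicle and 6.12, 6.02 and 7.96 FPKM with ivermectin, where ivermectin 3 stood above every vehicle library. Fkbp1b was at 9.61, 11.3 and 11.8 FPKM with vehicle and 10.2, 9.41 and 8.13 FPKM with ivermectin, which overlapped (log2 difference -0.22, 95% confidence interval -0.45 to 0.02).

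Among the uptake genes none passed with ivermectin. Atp2a2 was at 740.0, 813 and 777 FPKM with vehicle and 723, 751 and 682 FPKM with ivermectin, overlapping groups with a log2 difference of -0.11 (95% confidence interval -0.25 to 0.03). Pln was at 62.6, 63.7 and 66.5 FPKM with vehicle and 70.7, 63.4 and 68.2 FPKM with ivermectin, again overlapping. Sln, the other brake on the pump, was at 1.58, 1.56 and 2.29 FPKM with vehicle and 1.41, 0.742 and 0.440 FPKM with ivermectin. The groups did not overlap, but the spread with ivermectin was wide, at 57.4% of the mean. The log2 difference was -0.62 (SE 0.17, limma adjusted p = 0.0779), and it passed without ivermectin 1 alone (-0.82, adjusted p = 0.0165).

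Both buffering genes were lower in all ivermectin libraries than in any vehicle library. Hrc was at 18.1, 19.3 and 17.8 FPKM with vehicle and 13.3, 13.9 and 13.9 FPKM with ivermectin. It fell by 0.40 on the log2 scale (SE 0.067, limma adjusted p = 0.00694), and the call held when any single library was left out. Without vehicle 2 and ivermectin 3 together the difference was -0.38 (adjusted p = 0.0662). Casq2 was at 156, 155 and 150.4 FPKM with vehicle and 127, 135 and 140.5 FPKM with ivermectin. Its log2 difference of -0.20 (95% confidence interval -0.33 to -0.06) did not pass (limma adjusted p = 0.110). The extrusion gene Slc8a1 was at 67.5, 67.2 and 71.4 FPKM with vehicle and 54.5, 53.2 and 56.5 FPKM with ivermectin. The groups lay far apart relative to their SDs of 2.31 and 1.66 FPKM. It fell by 0.32 (SE 0.058, limma adjusted p = 0.0120), a call that held without any single library and without vehicle 2 and ivermectin 3 together (-0.36, adjusted p = 0.0466).

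**Figure D2:**
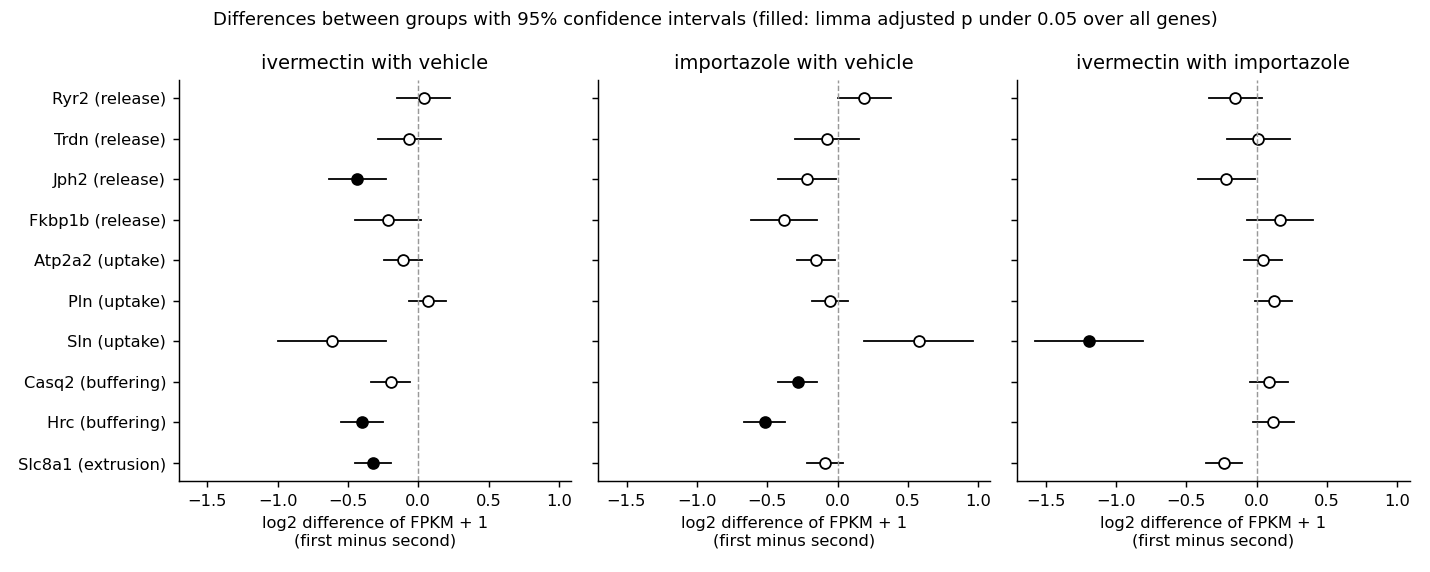
Log2 difference of FPKM + 1 (x axis, first group minus second) for each of the 10 genes (y axis) in the 3 comparisons, with 95% confidence intervals as lines and filled points for a limma adjusted p under 0.05. Filled points are Jph2, Hrc and Slc8a1 for ivermectin with vehicle, Casq2 and Hrc for importazole with vehicle, and Sln for ivermectin with importazole.

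Importazole was compared with the same 3 vehicle libraries to ask the same of the importin-β blocker, so both comparisons share their controls. The buffering genes Hrc and Casq2 fell, to 0.682 and 0.821 of their vehicle means, and the other 8 members did not pass. Of all genes 2.26% passed, 1.69% upward and 0.565% downward, beside which 2 of 10 members passed downward and 0 upward. At an unadjusted p under 0.05 there were 7 members, with Sln and Ryr2 the ones that were higher, beside 15.8% of all genes. All 3 libraries lay below vehicle for 7 members and above it for Sln. Groups did not overlap for 23.6% of all genes, with 7.07% wholly lower and 16.5% wholly higher. The 192 genes higher and 64 lower with importazole became 159 and 117 under quantile scaling and 162 and 118 under median-of-ratios scaling. The members' median log2 difference was -0.12, against 0.04 over all genes. Without vehicle 1, 2 or 3, ivermectin 2, or importazole 1, 2 or 3, Hrc was the 1 member that passed.

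Hrc was at 12.8, 12.8 and 12.0 FPKM in importazole 1, 2 and 3, below every vehicle and every ivermectin library. It fell by 0.52 (SE 0.067, limma adjusted p = 0.00209), and by 0.485 without vehicle 2 and ivermectin 3 together (adjusted p = 0.0167). Casq2 was at 120.1, 134 and 125 FPKM, below the vehicle range and overlapping the ivermectin range. It fell by 0.28 (SE 0.062, limma adjusted p = 0.0429). The 7 omissions named above gave adjusted p from 0.0570 to 0.171, and joint omission of vehicle 2 and ivermectin 3 gave 0.105. Slc8a1 was at 61.7, 64.8 and 66.9 FPKM, just below its vehicle range, with a log2 difference of -0.09 (95% confidence interval -0.22 to 0.04).

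Among the release genes with importazole, Fkbp1b was at 8.27, 8.81 and 7.28 FPKM, below all vehicle libraries, with a log2 difference of -0.38 (SE 0.11, limma adjusted p = 0.09998). Jph2 was at 47.1, 55.5 and 50.1 FPKM, also below all vehicle libraries (log2 difference -0.22, adjusted p = 0.290). Ryr2 was at 11.4, 10.1 and 10.997 FPKM and overlapped vehicle through vehicle 2 (log2 difference 0.19, adjusted p = 0.311). Trdn was at 6.66, 6.80 and 6.32 FPKM, overlapping the vehicle range. None of these 4 passed. Among the uptake genes Atp2a2 was at 670.2, 722 and 700.3 FPKM, below all vehicle libraries by a log2 difference of -0.15 (95% confidence interval -0.29 to -0.02, adjusted p = 0.259). Pln was at 62.0, 62.4 and 61.5 FPKM, a tight group lying just under the vehicle range. Sln was at 3.27, 3.06 and 3.16 FPKM, above all 3 vehicle libraries. Its log2 difference was 0.58 (SE 0.17, limma adjusted p = 0.131).

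Ivermectin and importazole were also compared directly, at these doses, to test where their effects differed. Sln was lower with ivermectin than with importazole, at 0.273 of its mean, and the other 9 members did not pass. Of all genes 3.42% passed, 0.714% higher and 2.71% lower with ivermectin, beside which 1 of 10 members passed. The 81 genes higher and 307 lower became 191 and 274 under quantile scaling and 139 and 282 under median-of-ratios scaling. The Sln groups of 0.440 to 1.41 FPKM and 3.06 to 3.27 FPKM did not overlap, and the vehicle libraries lay between them. The log2 difference was -1.19 (SE 0.17, limma adjusted p = 0.00321). It ranged from -1.39 to -1.02 when single libraries were left out, passed each time, and was -1.02 (adjusted p = 0.0152) without vehicle 2 and ivermectin 3 together. Sln is a low transcript, and 2 of the 3 ivermectin libraries were under 1 FPKM, so the size depends on the pseudocount: it was -1.89 with 0.1 FPKM added in place of 1.

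Slc8a1 was lower with ivermectin in all libraries, by a log2 difference of -0.23 (95% confidence interval -0.36 to -0.10), which did not pass (limma adjusted p = 0.0582). The fall of Hrc with each compound was not shown to differ: its log2 difference between them was 0.12 (95% confidence interval -0.03 to 0.26). Casq2, which passed with importazole alone, had a difference of 0.09 between the compounds (-0.05 to 0.23, adjusted p = 0.499). Jph2, which passed with ivermectin alone, had one of -0.22 (-0.42 to -0.01, adjusted p = 0.241), so neither was shown to differ between them. For Ryr2 the difference was -0.15 and for Pln 0.12, with groups that did not overlap and adjusted p of 0.375 and 0.308. In all, 3 members lay wholly lower and 2 wholly higher with ivermectin, where 16.1% and 8.04% of all genes did, 24.2% in all.

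Since FPKM is scaled to length, ratios between members can be set side by side as a description, with no test. Sln per 1000 Atp2a2 was 2.14, 1.92 and 2.95 with vehicle, 1.95, 0.988 and 0.644 with ivermectin, and 4.88, 4.24 and 4.51 with importazole. The importazole libraries lay above all others, while ivermectin 1 fell within the vehicle range. Pln per 100 Atp2a2 was 8.46, 7.84 and 8.56 with vehicle, 9.77, 8.45 and 9.998 with ivermectin, and 9.25, 8.64 and 8.78 with importazole. The importazole values lay narrowly above vehicle, and the ivermectin values overlapped it. Pln stood above Sln in every library, with Sln at 0.00644 to 0.0528 of the FPKM of Pln. Other small regulators of the pump were not compared.

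Ratios of Fkbp1b and Casq2 to the channel transcript were lowest on average with importazole. Fkbp1b per Ryr2 was 1.12, 1.08 and 1.29 with vehicle, 1.04, 0.972 and 0.862 with ivermectin, and 0.726, 0.874 and 0.662 with importazole. Both compound groups lay below vehicle and overlapped each other. Casq2 per Ryr2 was 18.3, 14.8 and 16.5 with vehicle, 12.997, 13.98 and 14.9 with ivermectin, and 10.5, 13.3 and 11.3 with importazole. The importazole values lay below vehicle, and ivermectin 3 reached into the vehicle range. Slc8a1 per Atp2a2, a ratio of extrusion to uptake transcripts, had means of 0.0886 ± 0.00513 with vehicle, 0.0763 ± 0.00604 with ivermectin and 0.0925 ± 0.00288 with importazole. The ivermectin libraries lay below all importazole libraries and overlapped vehicle through 1 library each.

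**Figure D3:**
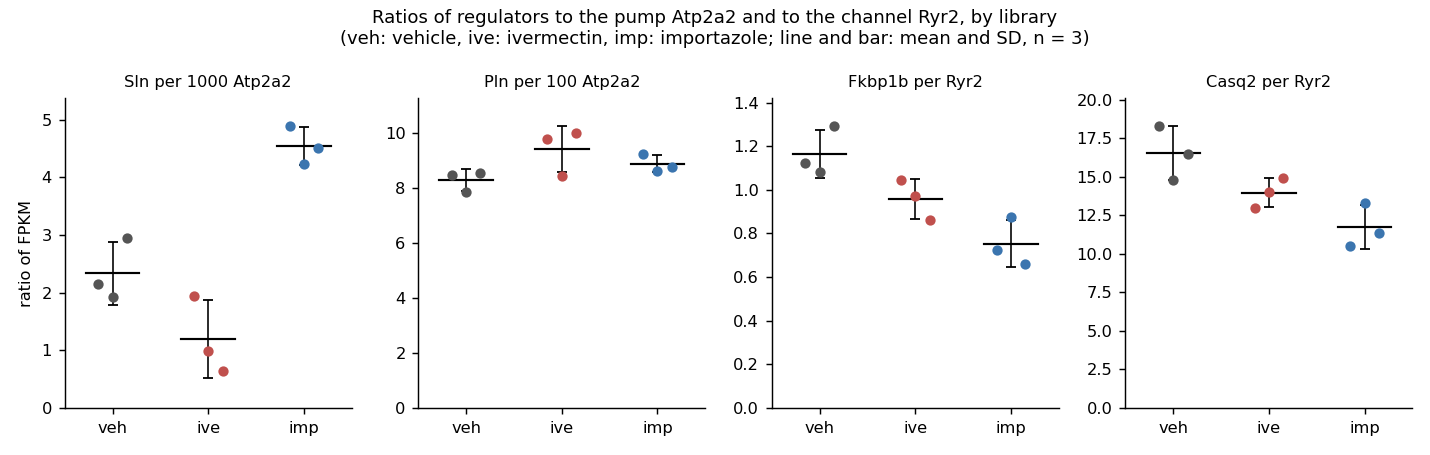
Ratios of FPKM (y axis, from 0) of Sln per 1000 Atp2a2, Pln per 100 Atp2a2, Fkbp1b per Ryr2 and Casq2 per Ryr2 in the 9 libraries, as points by group on the x axis, with mean and SD (n = 3). Sln per 1000 Atp2a2 is 4.24 to 4.88 with importazole and at most 2.95 elsewhere, and Fkbp1b per Ryr2 is at least 1.08 in the vehicle libraries and at most 1.04 elsewhere.

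The wider calcium machinery was read from 6 lists of 84 further genes for release, uptake, buffering, extrusion, entry at the cell surface and mitochondrial exchange, chosen with earlier results of these data known. Of these, 78 had a row and 64 were tested. With ivermectin 2 rose and 4 fell, with importazole 1 rose and 2 fell, and 2 were higher with ivermectin in the direct comparison, 0 lower. These were 9.38%, 4.69% and 3.12% of the 64, beside 4.31%, 2.26% and 3.42% of all genes, so the direct count lay near the background. The counts against vehicle include Atp2a3, the 1 gene that rose with importazole and 1 of the 2 that rose with ivermectin. It entered the test only through the compound libraries, so no excess over the background is read from these counts. Median log2 differences were -0.06, -0.03 and -0.01 in that order. The 14 tested genes of entry and T-tubules and the 6 of mitochondrial exchange had 0 calls by limma in either comparison with vehicle, with 2 and 0 at an unadjusted p under 0.05 for ivermectin and 1 and 1 for importazole.

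The largest log2 differences from vehicle among these 64 genes were those of another pump gene. Atp2a3, which encodes SERCA3 and is known mainly from cells other than heart muscle (chromosome 11, 72961169 to 72993044, plus strand), was at 0.626, 0.959 and 0.914 FPKM with vehicle. It stood at 3.34, 4.15 and 2.98 FPKM with ivermectin and 3.395, 3.31 and 3.298 FPKM with importazole. It rose by 1.29 and 1.25 on the log2 scale (limma adjusted p = 1.31e-04 and 2.25e-04), with every compound library above every vehicle library, and the calls held when any single library was left out. Atp2a3 reached 1 FPKM in the 6 compound libraries alone, so it entered the test through the groups in which it was high. Its share of summed SERCA FPKM was 0.107% ± 0.0191 with vehicle, 0.481% ± 0.0602 with ivermectin and 0.476% ± 0.0244 with importazole, and Atp2a2 kept at least 99.4% in every library.

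Among the other genes of release and uptake, Camk2b, a subunit gene of a calcium-activated kinase that acts on the channel and on phospholamban, fell from 3.60 ± 0.508 to 1.87 ± 0.306 FPKM with ivermectin (limma adjusted p = 0.00676). With importazole it was at 2.41 ± 0.0766 FPKM and did not pass (adjusted p = 0.0892). Camk2d and Camk2g, genes of other subunits of this kinase, stood higher, at 38.2 ± 2.01 and 16.4 ± 0.930 FPKM with vehicle. With ivermectin they were at 38.7 ± 4.01 and 17.1 ± 0.0706 FPKM, and neither passed with either compound. Hax1, whose product binds phospholamban, rose from 20.8 ± 1.51 to 28.4 ± 1.66 FPKM with ivermectin (adjusted p = 0.0260). Tmem38b, for a potassium channel of the store membrane, was higher with ivermectin than with importazole, at 11.4 ± 0.993 and 8.44 ± 0.216 FPKM (adjusted p = 0.0465). With vehicle Tmem38b was at 8.65 ± 0.943 FPKM, and ivermectin did not pass against it (limma adjusted p = 0.0541). The related gene Tmem38a was at 18.0 ± 1.11 FPKM with vehicle, 15.1 ± 0.638 with ivermectin and 16.6 ± 0.718 with importazole, and passed in no comparison.

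In the buffering list Rcn3, a calcium-binding protein of the secretory pathway, fell from 133 ± 13.6 to 98.6 ± 4.36 FPKM with ivermectin (limma adjusted p = 0.0120). Srl, which encodes sarcalumenin, a calcium binder of the sarcoplasmic reticulum, fell with importazole from 55.1 ± 4.21 to 42.9 ± 2.95 FPKM (adjusted p = 0.0316). With ivermectin Srl was at 52.5 ± 1.09 FPKM, overlapping vehicle. In the extrusion list Atp1b1, a subunit of the sodium pump that sets the sodium gradient used by the exchanger, fell from 351 ± 4.25 to 285 ± 14.2 FPKM with ivermectin and 282 ± 15.4 FPKM with importazole (adjusted p = 0.0195 and 0.0234). Its exons overlap Nme7 on the opposite strand, which was at 7.45 to 9.96 FPKM. Cacna2d1, a subunit of the surface calcium channel, was higher with ivermectin than with importazole, at 16.4 ± 0.671 and 12.4 ± 0.879 FPKM (adjusted p = 0.0285). With vehicle it was at 15.3 ± 1.16 FPKM, which overlapped ivermectin and lay above all importazole libraries. Neither compound passed against vehicle (limma adjusted p = 0.560 for ivermectin and 0.0999 for importazole). With ivermectin the Atp1b1 call ended without vehicle 1, 2 or 3 or ivermectin 1, the Hax1 call without vehicle 2, vehicle 3, ivermectin 2 or ivermectin 3, and the Rcn3 call without vehicle 2. Without vehicle 2 and ivermectin 3 together Atp2a3 alone of the listed genes passed with ivermectin. With importazole the Atp1b1 and Srl calls both ended without vehicle 1, 2 or 3 or importazole 1 or 3, and the Srl call also without ivermectin 2. In the direct comparison neither Tmem38b nor Cacna2d1 passed without ivermectin 1, ivermectin 2, importazole 1 or importazole 2. The Tmem38b call also ended without vehicle 1, vehicle 3 or importazole 3, and the Cacna2d1 call without ivermectin 3.

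**Figure D4:**
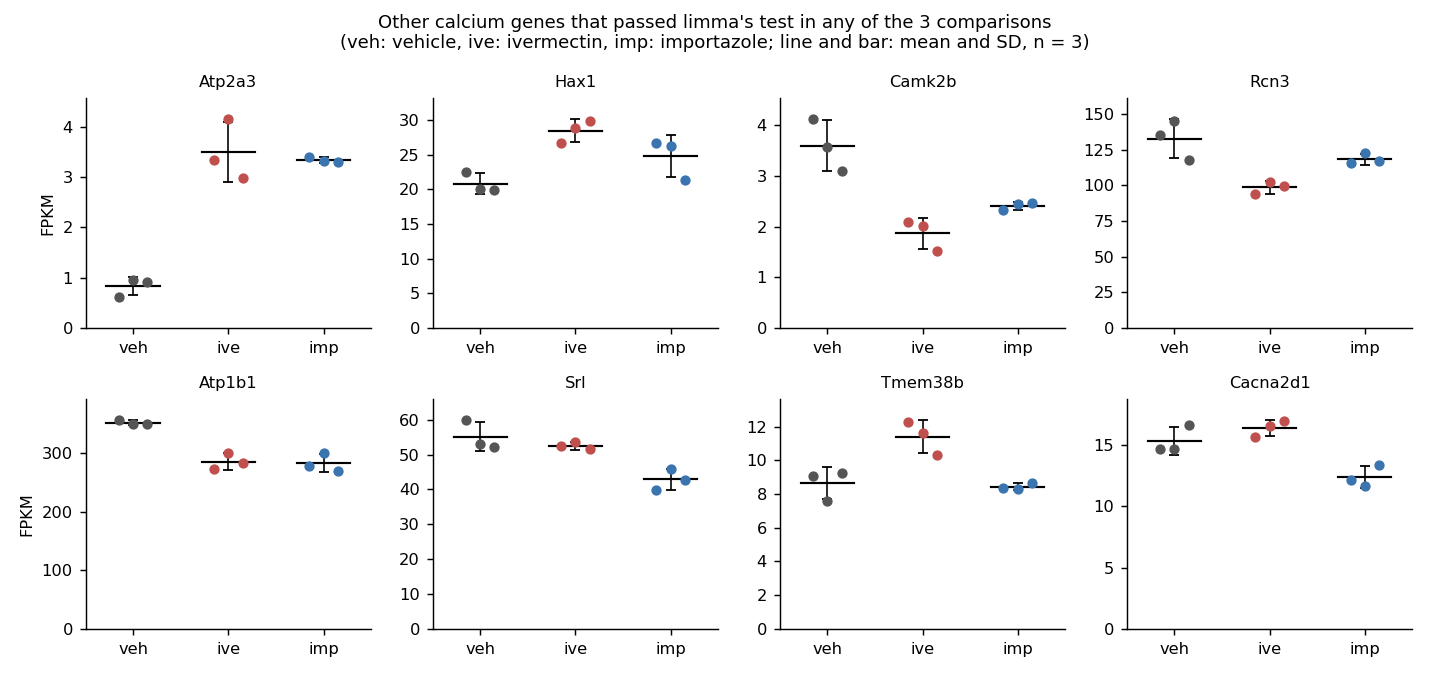
FPKM (y axis, from 0) of 8 other calcium genes that passed limma's test in any comparison, as points by library and group on the x axis, with mean and SD (n = 3). Atp2a3 is under 1 FPKM in the vehicle libraries and at 2.98 to 4.15 FPKM in the 6 compound libraries.

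For the 5 members that passed any comparison, the genes with the most similar pattern were sought among 7762 genes with a mean of at least 5 FPKM, by Pearson's r of log2(FPKM + 1) over the 9 libraries. Such r are the largest of many and the libraries share their groups, so they describe likeness only. For Hrc they were Actc1 (0.966), Ndrg2 (0.962) and Smyd1 (0.955), and for Casq2 Smyd1 (0.962), Ndrg4 (0.961) and Kif22 (0.955), so Smyd1 was named for both buffering genes. For Jph2 they were Arhgef17 (0.975), Cyp26b1 (0.973) and Jup (0.971). For Slc8a1 they were Plod2 (0.973), Ier3 (0.963) and Itga5 (0.962), and for Sln Spry1 (0.962), Clcn6 (0.955) and Mcm10 (0.945).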

How the data were processed

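Poly(A) RNA of 9 HL-1 libraries was sequenced on the Ion Proton system, per the labels' protocols. Each deposited file pairs gene symbols with FPKM for 1 library, per the file headers. STAR, Bowtie2, Bowtie and Cufflinks, with the builds mm10 and GRCm38, are named in the submitters' processing notes. Versions, annotation, strand and filters: each not given in the sources used here. Because FPKM is a share of the mapped fragments, the loss of an abundant transcript from a library can raise its other values. Without Yam1, FPKM summed to 365259 in vehicle 2, between vehicle 3 (361000) and vehicle 1 (386614). In ivermectin 3 it summed to 392482, above ivermectin 1 (356967) and ivermectin 2 (374625). Whether Yam1 shifted other values was not tested.

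The 48 symbols that occurred more than once, none a member, were summed. The 11337 genes that reached 1 FPKM in 3 or more libraries were tested on the log2(FPKM + 1) scale without rescaling, by limma 3.58.1 in R 4.3.3. The fit used all 9 libraries, group as its only term, and robust empirical Bayes moderation with a trend. P-values were two-sided and adjusted by Benjamini and Hochberg's method over all genes tested, and an adjusted p under 0.05 was called. The procedure was tested on simulated data with independent noise for each gene, which held no deviation shared across a whole library. Locations are from GENCODE M21 and promoter windows from RefSeq. Members, the 6 lists, the rule for named genes and the alternatives were chosen with earlier results of these data known. Named genes are all members, listed calcium genes past the threshold, family partners of members and the 3 genes most alike to each called member. Ddr2, Kdr, Acta2, Ckm and Hbb-bs among the markers, Camk2d, Camk2g, Tmem38a, Cep85l, Nme7 and Yam1 were named after their values were seen. The result of 1 gene among the listed calcium genes is counted but not reported by name here.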

Additional observations from a re-analysis of the deposited data

How the results depend on the processing

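The results were recomputed under 19 alternatives: pseudocounts of 0.1 and 0.5 FPKM, no filter, a filter at 5 FPKM, quantile and median-of-ratios scaling, a fit to the 6 libraries compared, the replicate block, moderation without trend or robustness, omission of each library, and omission of vehicle 2 and ivermectin 3 together. Of 567 values for the 30 member results, 544 stayed on their side of the threshold (5 of them uncalled values of opposite sign, for Ryr2, Trdn and Atp2a2), 19 lost a call, 4 gained one and 0 called values changed sign. The gained calls were Casq2 with ivermectin under median-of-ratios scaling (adjusted p = 0.0441), Sln with ivermectin without ivermectin 1, Sln with importazole in the 6-library fit (0.0422) and Slc8a1 between the compounds at the 5 FPKM filter (0.0496), which leaves Sln out. Replicate numbers did not pair the libraries: deviations of same-numbered libraries correlated at -0.210 to 0.145. Those of other pairs from different groups correlated at -0.219 to 0.307. The highest was vehicle 2 with ivermectin 3, the libraries with 0 FPKM of Yam1. What these 2 libraries share beyond that was not tested.

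With ivermectin against vehicle the 3 members called became 1 without vehicle 2 and ivermectin 3, 2 with no filter and in the 6-library fit, and 2 to 3 when single libraries were left out. The 489 genes called became 612 under quantile scaling, 640 under median-of-ratios scaling and 354 under the replicate block. They became 211 with no filter, 273 in the 6-library fit, 190 without both libraries and 243 to 398 with single omissions. The 6 other calcium genes became 3 with no filter, 4 under the replicate block, 1 without both libraries and 2 to 6 with single omissions. With importazole against vehicle the 2 members became 1 with no filter, under the replicate block, without trend or robustness and without both libraries, and 1 to 2 with single omissions. The 256 genes became 133 with no filter, 161 without both libraries and 127 to 319 with single omissions, and the 3 other calcium genes became 1, 1 and 1 to 3. Between the compounds the 388 genes became 177 with no filter, 257 under the replicate block, 231 without both libraries and 176 to 396 with single omissions. The 2 other calcium genes became 0 with no filter, 5 under quantile and 4 under median-of-ratios scaling, and 1 in the 6-library fit, under the replicate block, without trend or robustness and without both libraries, and 0 to 2 with single omissions. Fewer libraries or more genes tested enter several of these; beyond that the cause was not tested. Depth is unknown, so its limit on low genes such as Sln could not be given.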
